A study of Mus musculus with 8 samples.

Results

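The transcription factors that drive oligodendrocyte identity were followed across RNA-sequencing and DNA hydroxymethylation in adult oligodendrocyte progenitor cells (aOPC) and adult oligodendrocytes (aOL) of the mouse brain. The members were chosen by name, as factors of lineage specification and myelination, and are Olig1, Olig2, Sox10, Sox8, Nkx2-2, Nkx6-2, Myrf, Zfp488, Zfp536 and Zeb2. All 10 were among the 11315 genes of the RNA tables, and 556 of the 1497075 hydroxymethylation sites named one of them in the promoter, exon or intron columns. Both populations came from C57BL/6 mice at postnatal day 60. The aOPC were sorted from brains of Pdgfra-H2BEGFP mice, in which the locus of the progenitor receptor Pdgfra drives a nuclear green fluorescent protein. The aOL were sorted from brains of Plp-EGFP mice, in which the promoter of a myelin protein gene drives a green fluorescent protein. Each population had 2 RNA-seq and 2 hydroxymethylation libraries, numbered replicates 2 and 3, with DNA and RNA taken from the same cell pellet. The study's methods speak of biological replicates for RRHP, while the labels do not say how many animals stand behind each library, and the p-values measure the spread between these libraries. The tissue label of the aOL hydroxymethylation libraries names the Pdgfra reporter while their titles name Plp, and they were grouped by title. The titles of the aOL RNA libraries call the cells pre-myelinating, while the protocol calls them myelinating.

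Oligodendrocyte progenitors are specified by the basic helix-loop-helix factor Olig2 and keep a shared network of factors as they mature. In that network Olig2 and Sox10 act early and late, Nkx2-2 times the onset of differentiation, and Sox10 with Myrf switches on the myelin genes. Zeb2 relieves the brake that BMP and Wnt signalling put on maturation, and the zinc finger protein Zfp488 acts with Olig2. The mark measured in DNA, 5-hydroxymethylcytosine (5hmC), is made by TET enzymes from methylcytosine and is abundant over the bodies of expressed genes in brain, while CpG islands at promoters usually carry little of it.

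None of the 10 factors passed the RNA test between aOPC and aOL, nor did their gene bodies, promoters, CpG islands or single sites pass the hydroxymethylation tests. The RNA fit, with 2 libraries per population, called only 9 of 11133 genes, so an absent call does not show an absent change. The study, which also used replicate 1, lists Myrf as a transcript raised in aOL with increased hydroxymethylation at its promoter or gene region. Transcripts of Myrf, Zeb2 and Sox10 were higher in both aOL libraries than in both aOPC libraries, and those of Zfp488, Sox8 and Olig1 were lower, shares close to those over all genes (31.9% higher and 29.9% lower). The 5hmC level fell into different ranges along the list. Myrf and Zfp536 lay in the upper part of the range of protein-coding genes, and Sox10, Nkx6-2, Olig1 and Olig2 near its low end in 3 of the 4 libraries, whereas in aOPC replicate 2 Olig2 stood at the 53.3 percentile and Olig1 at 32.6.

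The labels were checked against markers before the factors were read. In RNA the libraries labelled aOPC carried transcripts of myelinating oligodendrocytes at about the aOL level, with list medians of 17.46 and 16.86 in the aOPC libraries against 17.46 and 17.55 in aOL (log2 value, 15 genes, 0 called, 2 higher and 4 lower at an unadjusted p under 0.05, against 1346 higher and 1331 lower of all 11133 genes, 24.0% together). The 9 listed progenitor markers had medians of 8.63 and 6.43 in the aOPC libraries against 6.39 and 6.83 in aOL, with 0 called, 3 above 0 and 6 below, and 0 higher and 2 lower at an unadjusted p under 0.05. Those 2 were Neu4 and Vcan, whose differences were -5.17 and -4.20 with adjusted p of 0.133 and 0.178 (limma), both without overlap. Pdgfra, whose locus drives the sorting reporter, stood at 7.54 and 5.47 in the aOPC libraries against 4.98 and 1.63 in aOL. Above 0 were Ptprz1 at 1.06, which overlapped, Matn4 at 0.80, which did not, and Lhfpl3 at 0.042, which overlapped. Astrocyte, microglia, neuron and newly formed oligodendrocyte lists had 0 called and medians of the difference between -0.60 and -0.37, and the 2 endothelial markers listed were higher in both aOL libraries, with Cldn5 at 0.33 and 1.80 in aOPC against 5.92 and 7.13 in aOL. The pericyte list had 1 gene listed, Vtn, which overlapped. In a bulk library fewer cells of a type and less RNA per cell cannot be told apart, and the part of these other transcripts in the factors' values was not tested. Replicates were less close in aOPC, where the median gap between the 2 libraries was 0.48 log2 units over all genes tested, against 0.12 in aOL. The 10 factors followed the same pattern, with a median gap of 0.48 in aOPC and 0.08 in aOL.

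The RNA values are log2 levels normalised by the authors and are not scaled by transcript length, so they were compared between libraries and not between genes. A gene was called in limma at an unadjusted p under 0.01 where its p adjusted by Benjamini-Hochberg was also under 0.05, fitted on 11133 genes. Of the 10 factors 0 were called, against 0.0808% of all genes tested. At an unadjusted p under 0.05 there were 2 factors, against 24.0% of all genes. Groups did not overlap for 3 factors that were higher in aOL, where 31.9% of all genes did the same, and for 3 that were lower, where 29.9% did. With aOPC replicate 2 left out 36.3% of all genes were called, and with aOPC replicate 3 left out 21.3%, against which the calls of single factors without a library are to be read. The median difference of the factors was -0.03, against 0.02 over all genes, and the median absolute difference was 0.44 in both.

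**Figure D1:**
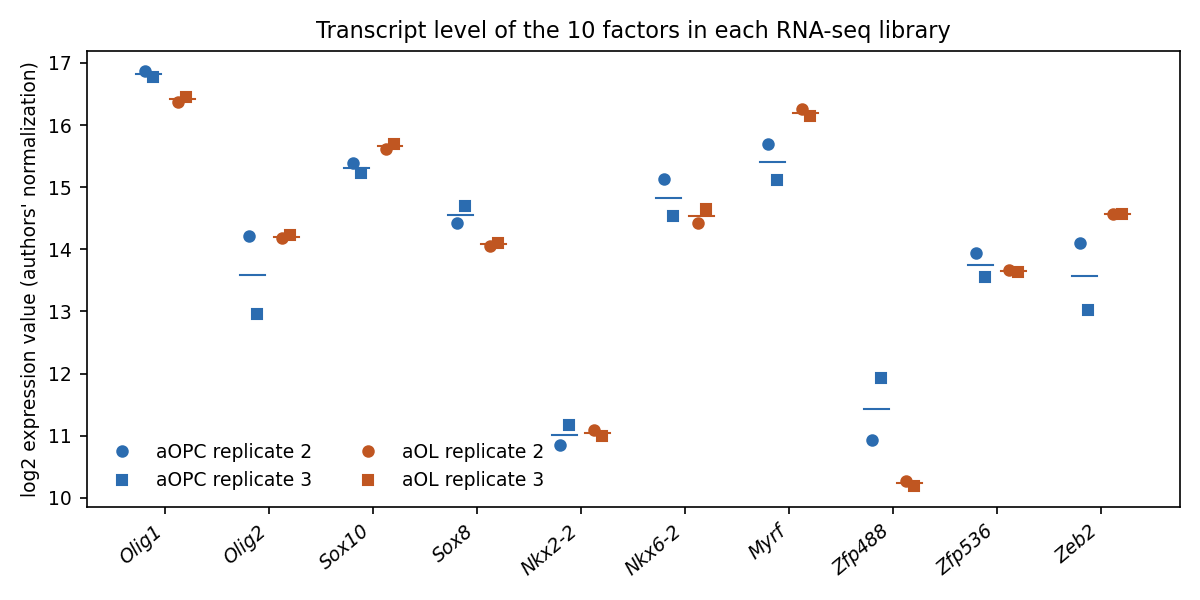
Log2 expression value (vertical axis, authors' normalization) of each of the 10 factors in the 4 RNA-seq libraries, with aOPC in blue and aOL in orange, circles for replicate 2, squares for replicate 3 and a line at the mean of each population. The aOL replicates lie close together for every factor, while the aOPC replicates of Olig2, Zeb2 and Zfp488 lie 0.99 to 1.26 log2 units apart.

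Olig1 and Olig2 are neighbouring basic helix-loop-helix genes, Olig2 the factor of lineage specification and Olig1 its close relative with a role in maturation and repair. Olig1 was at 16.86 and 16.77 in the aOPC libraries against 16.38 and 16.45 in aOL. Both aOL libraries lay below both aOPC libraries, with a difference of -0.40 ± 0.19 log2 units (SE) and an adjusted p of 0.276. Olig2 was at 14.22 and 12.96 in the aOPC libraries against 14.18 and 14.23 in aOL. Here aOPC replicate 2 stood at the aOL level and aOPC replicate 3 stood alone below, so the groups overlapped, and the difference of 0.61 ± 0.48 had an adjusted p of 0.464. Without aOPC replicate 3 the Olig2 difference was -0.02, and without aOPC replicate 2 it was 1.24 and called (adjusted p = 0.0151). In RefSeq the lncRNA Gm52261 overlaps the end of Olig2 in antisense, and whether reads were counted by strand is not stated.

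Sox10 and Sox8 belong to the SoxE group of HMG-box factors, of which Sox10 binds and activates myelin genes and Sox8 can act in its place. Sox10 was at 15.39 and 15.23 in the aOPC libraries against 15.62 and 15.69 in aOL. Its groups did not overlap, and the difference of 0.35 ± 0.19 had an adjusted p of 0.338. The Sox8 values, at 14.42 and 14.70 in aOPC and 14.06 and 14.11 for aOL, were placed the other way round. The aOL libraries again lay below both aOPC libraries, at -0.48 ± 0.21 with an adjusted p of 0.256, and without aOPC replicate 2 the Sox8 difference of -0.62 was called (adjusted p = 0.0262).

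The homeodomain factors Nkx2-2, a regulator of the timing of differentiation, and Nkx6-2, a regulator of myelin and paranode genes, did not separate the populations. Nkx2-2 was at 10.85 and 11.18 in the aOPC libraries against 11.10 and 11.00 in aOL, with both aOL values inside the aOPC range. Its difference was 0.04 ± 0.22 with an adjusted p of 0.927. Nkx6-2 was at 15.12 and 14.53 in the aOPC libraries against 14.42 and 14.65 in aOL, a difference of -0.29 ± 0.29 with an adjusted p of 0.559. The highest Nkx6-2 value was in aOPC replicate 2, and aOL replicate 3 lay above aOPC replicate 3. Both genes overlap antisense transcripts, the lncRNA Nkx2-2os in one case and Inpp5a and Gm33031 in the other.

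Myrf, a membrane-bound factor that cuts itself free and activates the myelin programme, was at 15.69 and 15.11 in the aOPC libraries against 16.26 and 16.14 in aOL. All aOL values exceeded all aOPC values, and the difference of 0.80 ± 0.28 had an unadjusted p of 0.0417 and an adjusted p of 0.196 (limma). Without aOPC replicate 2 the Myrf difference was 1.09 and called (adjusted p = 0.0159), while without aOPC replicate 3 it was 0.51 with an adjusted p of 0.0643.

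Of the 3 zinc finger genes, Zfp488, a cofactor of Olig2 that promotes differentiation, had the largest fitted difference of the 10 factors. Its values were 10.93 and 11.92 in the aOPC libraries against 10.27 and 10.19 in aOL. The aOL libraries lay below both aOPC libraries, which were themselves 0.99 apart, and the difference of -1.20 ± 0.39 had an unadjusted p of 0.0352 and an adjusted p of 0.188 (limma). Zfp488 was called with either aOPC library left out, at -1.69 (adjusted p = 0.0151) without replicate 2 and at -0.71 (adjusted p = 0.0444) without replicate 3, in fits that called 36.3% and 21.3% of all genes.

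Zeb2, a Smad-interacting repressor required for oligodendrocyte maturation, was at 14.11 and 13.02 in aOPC and at 14.57 in both aOL libraries. The aOL libraries lay above both aOPC libraries, with aOPC replicate 3 the lowest, and the difference of 1.004 ± 0.42 had an adjusted p of 0.242. Without aOPC replicate 2 it was 1.55 and called (adjusted p = 0.0151), and without aOPC replicate 3 it was 0.46 (adjusted p = 0.0594). Zfp536, a repressor known from neuronal differentiation, was at 13.94 and 13.56 in the aOPC libraries against 13.67 and 13.63 in aOL. Both aOL values fell inside the aOPC range, and the difference was -0.09 ± 0.23 with an adjusted p of 0.820. RefSeq places antisense lncRNAs over both Zeb2 (Zeb2os) and Zfp536.

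The factors were also compared with each other by the distance between their centred log2 values over the 4 RNA libraries, where a small distance means that 2 profiles run alike. The closest pair was Olig1 and Sox8 at 0.27, followed by Nkx6-2 and Zfp536 at 0.31. Olig2 lay nearest to Zeb2, at 0.41, and Myrf to Zeb2 at 0.42. The most distant pair was Zfp488 and Zeb2 at 2.65. Olig1 and Olig2, which lie next to each other on chromosome 16, were 1.31 apart. With 4 libraries these distances are a description and carry no test.

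Other genes of the network were taken as lists. Of 18 listed partners and cofactors of the factors, which include E proteins, chromatin remodellers, histone deacetylases and nuclear factor I genes, 0 were called, 10 were above 0 and 8 below, and the median difference was 0.04. Sox2, a factor of progenitor and stem cells, had the smallest p of that list. It was at 9.98 and 9.23 in the aOPC libraries against 8.52 and 8.53 in aOL, a difference of -1.08 ± 0.32 with an adjusted p of 0.174 (limma). Hdac1, a histone deacetylase, and Yy1, a zinc finger regulator of differentiation, had differences of -0.32 and -0.42 with adjusted p of 0.357 and 0.367. Of 9 listed inhibitors of differentiation 0 were called, 9 lay below 0 and 7 of these at an unadjusted p under 0.05, where 1331 of all 11133 genes were lower, with a median difference of -2.01. Id1, which sequesters helix-loop-helix partners, had the smallest p. It was at 7.89 and 7.95 in the aOPC libraries against 5.20 and 4.88 in aOL, a difference of -2.88 ± 0.22 with an adjusted p of 0.0611 (limma). Its relatives Id2 and Id3 differed by -2.58 ± 0.34 and -1.29 ± 0.24, with adjusted p of 0.112 and 0.133. In each of Id1, Id2 and Id3 both aOL libraries lay below both aOPC libraries, as they did in 29.9% of all genes.

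Hydroxymethylation was measured by reduced representation hydroxymethylation profiling (RRHP). A CCGG site that carries glucosylated 5hmC resists the enzyme MspI and yields reads, so only CCGG positions are read and a site without reads may be unmarked or not sampled. The libraries held 7113237 and 17121440 counts in the aOPC libraries against 15923775 and 27057859 in aOL. A floor of 3 counts corresponds to between 0.111 and 0.422 CPM, which are counts scaled to a common library total, and floors and intervals allow for counting error alone. The strongest gene-body site of each of 6 factors is printed below from the GRCm38 genome, read 5′ to 3′ on the strand of the count, with the CCGG in capitals to show which positions stand behind the values. The Olig2 site lies in a CpG island, the Myrf, Zfp536 and Zeb2 sites in introns, and the Zfp488 site in an exon, while the Nkx2-2 site is given to both an exon and an intron of the gene. The site printed last but one is the Zeb2 site with the smallest p of any member site, followed by the next.
Olig2 strongest gene-body site, chr16:91227430-91227459, plus strand: cagcgctggggctCCGGggctctgttgcaa
Nkx2-2 strongest gene-body site, chr2:147183141-147183170, plus strand: aagctttcagcgcCCGGcgctcttggggaa
Myrf strongest gene-body site, chr19:10221394-10221423, minus strand: gcctgggggactaCCGGtgagcgtccctcc
Zfp488 strongest gene-body site, chr14:33970424-33970453, plus strand: gcggcaagagagcCCGGgaggctgtggagg
Zfp536 strongest gene-body site, chr7:37549026-37549055, plus strand: atccatcaccataCCGGtgacttggtgagc
Zeb2 strongest gene-body site, chr2:45013927-45013956, plus strand: atgagagagttccCCGGtacaccttaaatt
Zeb2 intron site, chr2:44995750-44995779, plus strand: tttgttttggagaCCGGatcctgctatgct
Zeb2 intron site, chr2:45099775-45099804, minus strand: catctttgtgtatCCGGgaatcatttttac

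The strongest Zeb2 site, in an intron 103501 bp downstream of the gene start, had 66 and 227 counts in the aOPC libraries against 210 and 330 in aOL. In CPM these were 9.28 and 13.3 against 13.2 and 12.2, so the groups overlapped (log2 difference 0.06 ± 0.25, adjusted p = 0.971, edgeR). For the Zfp536 intron site the counts were 34 and 216 in the aOPC libraries against 183 and 280 in aOL, and for the Myrf intron site 31 and 111 against 96 and 135. Both sites overlapped between populations, with adjusted p of 0.907 and 0.945. The Zfp536 value, 0.19 ± 0.32, turned to -0.19 (adjusted p = 0.905) without aOPC replicate 2 and was 0.92 and called (adjusted p = 0.0464) without aOPC replicate 3, in a fit that called 6.74% of all sites. The strongest Olig2 site, in an exon 1894 bp downstream of the start and within a CpG island, had 6 and 5 counts in the aOPC libraries against 1 and 7 in aOL, too few to be tested alone. At Zfp488 the strongest site had 7 and 36 counts in the aOPC libraries against 37 and 57 in aOL.

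To compare genes, RRHP counts were summed over the RefSeq span and divided by the number of CCGG strand positions in it, 2 for each CCGG. Among 15216 protein-coding genes with at least 20 such positions the median was 0.288 CPM per position. Zfp536 stood at the 90.2 percentile with a mean of 0.599 CPM per position over the 4 libraries, and Myrf at the 86.4 percentile with 0.542. Nkx2-2, Zeb2 and Zfp488 lay in the middle, at percentiles 58.5, 46.1 and 44.9. The remaining members were lower, with Sox8 at the 24.1 percentile, Olig2 at 16.9, Olig1 at 10.3, Nkx6-2 at 8.04 and Sox10 at 5.13. These means carry the high values of aOPC replicate 2. In that library Sox8 stood at the 56.3 percentile against 11.5 to 19.2 in the others, Olig2 at 53.3 against 6.14 to 11.2, Olig1 at 32.6 against 2.43 to 8.13 and Nkx2-2 at 82.2 against 43.6 to 54.1. Nkx6-2 stood there at 19.7 against 4.78 to 9.19, and Sox10 at 11.3 against 3.57 to 5.34. Myrf and Zfp536 lay between 83.5 and 92.2 in every library.

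Within the low group Sox8 lay above Olig2, and Olig2 above Olig1, Nkx6-2 and Sox10, in each of the 4 libraries, while the order of the lowest 3 changed between libraries. Olig2 had 0.303 CPM per position in aOPC replicate 2 and between 0.0530 and 0.0970 in the other libraries, and Olig1 had 0.216 there against 0.0314 to 0.0796. The levels of Myrf varied little, from 0.499 to 0.567, and those of Zfp536 ran from 0.534 to 0.658. The ranges of Myrf and Zfp536 overlapped each other and lay above those of the 5 lowest genes in all libraries. The density of CCGG ran the other way in part, with 7.01 per kb in Nkx6-2, 5.99 in Olig1 and 5.12 in Olig2, against 1.45 in Myrf, 0.971 in Zfp536 and 0.829 in Zeb2. The median protein-coding gene had 1.03 per kb.

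**Figure D2:**
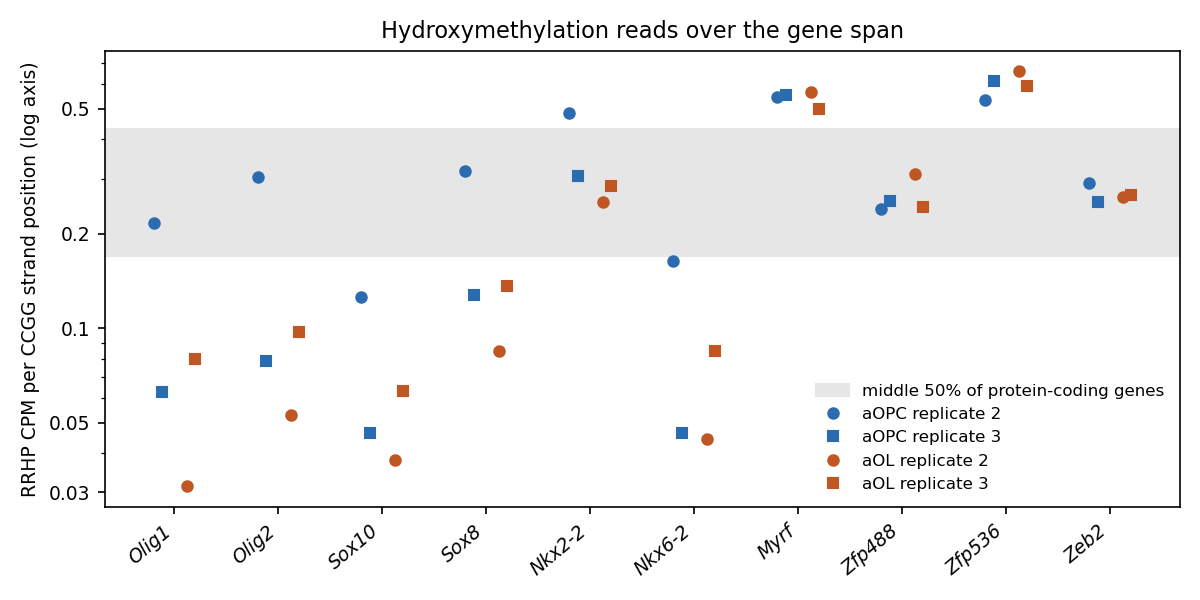
RRHP CPM per CCGG strand position over each gene's RefSeq span (vertical log axis) in the 4 libraries, with aOPC in blue, aOL in orange, circles for replicate 2 and squares for replicate 3. The grey band holds the middle 50% of protein-coding genes, and aOPC replicate 2 stands highest of the 4 libraries in Olig1, Olig2, Sox10, Sox8, Nkx2-2 and Nkx6-2.

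Sites of the members were unevenly spread over CpG islands. All 19 Olig1 sites and 31 of 32 Olig2 sites lay in an island, as did 40 of 46 Nkx6-2 sites, against 5 of 49 in Myrf and 25 of 205 in Zfp536. Island reads also set one library apart. Of all RRHP counts 5.74% fell in islands in aOPC replicate 2, against 2.47% in aOPC replicate 3, 2.38% in aOL replicate 2 and 3.32% in aOL replicate 3. Over the member sites the island share was 14.1% in aOPC replicate 2 (Wilson 95% interval 12.9 to 15.4) and between 8.73% and 10.5% in the other libraries. Which step raised the share in that library was not tested.

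Gene bodies were the exon and intron sites that the deposited columns give to a gene, summed and tested with edgeR over 18488 genes. Of the 10 factors 0 were called, against 0.849% of all genes tested, and 1 did not overlap between groups, against 38.8% of all genes. That gene was Nkx2-2, with 134 and 140 counts in the aOPC libraries against 86 and 207 in aOL, or 18.8 and 8.18 CPM against 5.40 and 7.65. Both aOL libraries lay below both aOPC libraries, with a log2 difference of -0.98 ± 0.34, an unadjusted p of 0.0166 and an adjusted p of 0.483 (edgeR).

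The other helix-loop-helix, Sox and homeobox genes had fitted differences below 0 as well. Olig1 had 40 and 28 counts in the aOPC libraries against 13 and 56 in aOL, and Olig2 had 69 and 43 against 27 and 84. In CPM Olig2 was at 9.70 and 2.51 in the aOPC libraries against 1.70 and 3.10 in aOL, so that aOPC replicate 2 stood alone and the remaining libraries were intermixed. The log2 differences were -1.23 ± 0.68 for Olig1 and -1.25 ± 0.58 for Olig2, with adjusted p of 0.737 and 0.703. Sox8 was at 10.1 and 4.09 CPM in the aOPC libraries against 2.70 and 4.36 in aOL, Sox10 at 6.05 and 2.22 against 1.82 and 3.03, and Nkx6-2 at 7.87 and 2.22 against 2.14 and 4.07. In each of these genes aOPC replicate 2 was again the highest library and the groups overlapped, with log2 differences of -0.94 ± 0.44, -0.69 ± 0.53 and -0.61 ± 0.56.

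These 6 values rested most on that library, and moved with the aOL libraries too. Without aOL replicate 2 they ranged from -0.91 in Olig2 to -0.25 in Nkx6-2. Without aOL replicate 3 they ranged from -2.10 in Olig1 to -1.14 in Sox10. Without aOPC replicate 2 they ranged from -0.32 in Nkx2-2 to 0.51 in Nkx6-2, with 0 called, in a fit that called 3.27% of all gene bodies. Without aOPC replicate 3 they ranged from -1.94 in Olig2 to -1.26 in Sox10, with 6 called, in a fit that called 22.6% of all gene bodies.

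Myrf and the zinc finger genes gave the most reads and the closest populations. Zfp536 had 1703 and 4938 counts in the aOPC libraries against 4844 and 7247 in aOL, or 239 and 288 CPM against 304 and 268, and its difference was 0.10 ± 0.14 with an adjusted p of 0.864, which was -0.035 without aOPC replicate 2 and 0.27 without aOPC replicate 3. Zeb2 was at 61.2 and 55.5 CPM in the aOPC libraries against 57.5 and 57.9 in aOL, a difference of -0.02 ± 0.12 with an adjusted p of 0.967. Myrf was at 51.0 and 52.0 CPM in the aOPC libraries against 53.3 and 46.6 in aOL, a difference of -0.06 ± 0.13 with an adjusted p of 0.913. All 3 overlapped between populations. Zfp488, with 9.56 and 10.9 CPM in the aOPC libraries against 13.5 and 10.5 in aOL, overlapped too and had a difference of 0.20 ± 0.20 with an adjusted p of 0.813, which was 0.11 without aOPC replicate 2 and 0.33 without aOPC replicate 3.

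**Figure D3:**
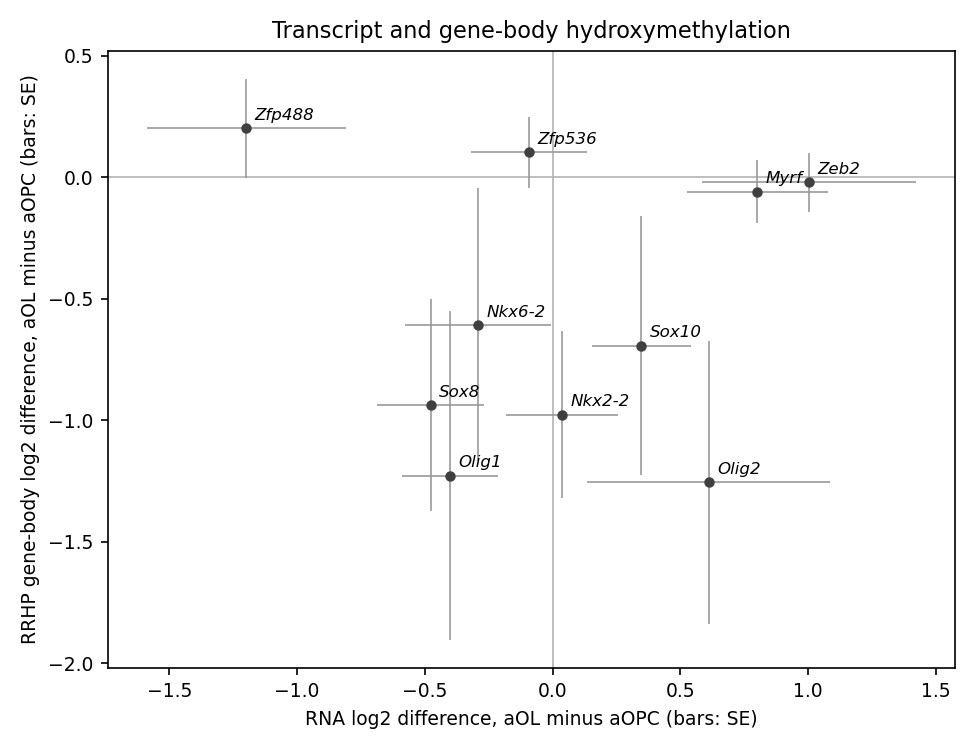
Log2 difference in RNA (horizontal axis) and in summed gene-body RRHP counts (vertical axis), both aOL minus aOPC, for the 10 factors, with bars of 1 SE in each direction. Zeb2 and Myrf lie at 1.004 and 0.80 in RNA and close to 0 in 5hmC, while Olig1 and Olig2 lie at -1.23 and -1.25 in 5hmC with SE of 0.68 and 0.58.

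The 2 measures are set side by side here. Zfp488 was at -1.20 in RNA and 0.20 in 5hmC, Zeb2 at 1.004 and -0.02, and Myrf at 0.80 and -0.06. Olig1 was at -0.40 in RNA and -1.23 in 5hmC, Sox8 at -0.48 and -0.94, and Nkx6-2 at -0.29 and -0.61, all below 0 in each measure. Olig2 was at 0.61 and -1.25, Sox10 at 0.35 and -0.69, and Zfp536 at -0.09 and 0.10. For Nkx2-2 the RNA difference was 0.04 and that in 5hmC was -0.98. With 10 genes, of which 6 depend most on 1 library in 5hmC, no relation between the measures was computed.

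**Figure D4:**
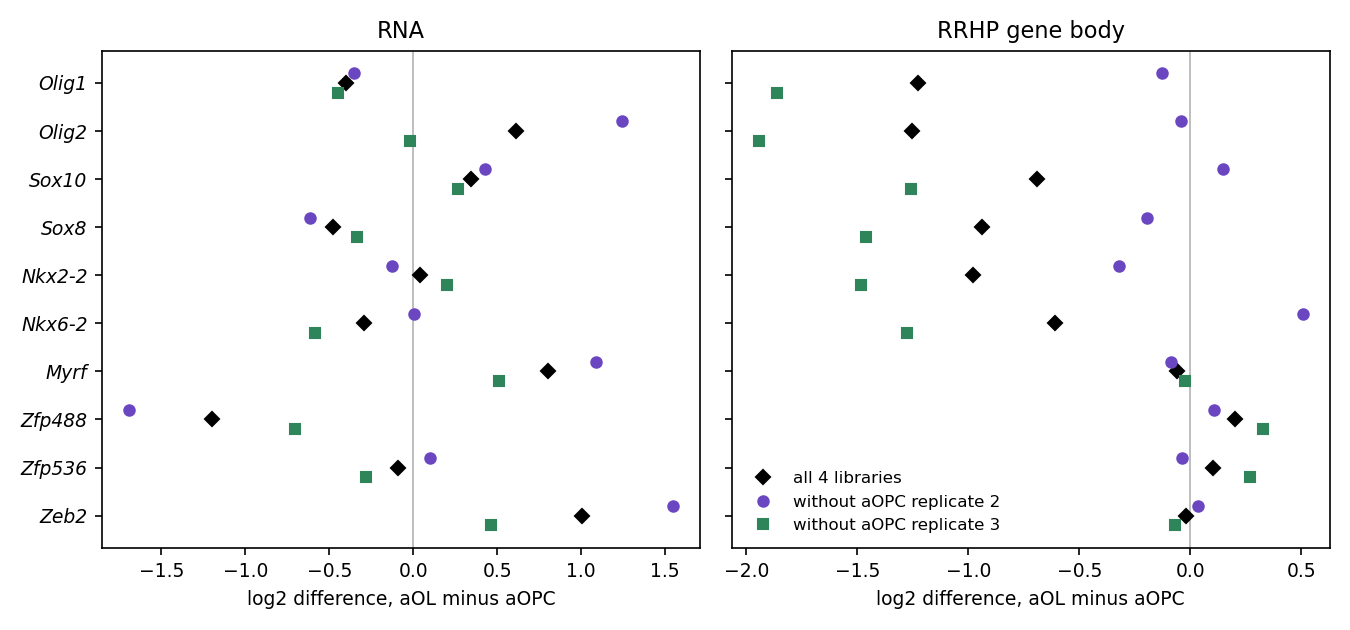
Log2 difference, aOL minus aOPC, of each factor in RNA (left) and in gene-body RRHP (right) with all 4 libraries (black diamonds), without aOPC replicate 2 (purple circles) and without aOPC replicate 3 (green squares). In RRHP the helix-loop-helix, Sox and homeobox genes move by over 1 log2 unit between the 2 choices, while Myrf and the 3 zinc finger genes stay within 0.33 of 0.

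Promoters were summed from the sites that the deposited promoter column gives to a gene. Of 9 factors tested 0 were called, against 0.768% of 14579 genes, and 1, Sox8, did not overlap, against 27.5%. Sox8 promoter sites had 22 and 23 counts in the aOPC libraries against 14 and 31 in aOL, or 3.09 and 1.34 CPM against 0.879 and 1.15, and the fitted difference was -0.52 ± 0.44 with an adjusted p of 0.998 (edgeR). The deepest promoter was that of Nkx6-2, with 69 and 105 counts in the aOPC libraries against 84 and 206 in aOL, where the difference was 0.20 ± 0.46, at 0.0021 without aOPC replicate 2 and 0.47 without aOPC replicate 3. Myrf, with 10 and 10 counts against 5 and 20, was the shallowest. Those 9 promoters had differences between -0.54 in Sox10 and 0.29 in Zfp536, each with an adjusted p of 0.998, and their SE of 0.38 to 0.58 set what could be detected. The sign of Sox10 turned with the promoter window of the study's methods, at 0.54. With library totals without TMM the median of all promoters was -0.597. In that fit the signs of Zfp536 and Nkx6-2 turned, and Sox10 and Sox8 were at -1.14 and -1.08. With the study's library totals without TMM the median was -0.106. There Zfp536 and Nkx6-2 kept their signs, at 0.21 and 0.16, and Sox10 and Sox8 were at -0.62 and -0.59. No site of the promoter column names Zeb2, and of the 15 unassigned sites in or before Zeb2 some are given to Gm13476, an older name of the antisense gene Zeb2os. Promoter-column sites of Nkx2-2 and Zfp536 lie 8196 to 9961 bp and 3421 to 4512 bp downstream of the RefSeq gene start, so these columns describe internal starts.

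The letters of the promoters limit what RRHP can read there. RefSeq promoter windows of GRCm38, 250 bases before to 50 after a start, were matched for 7 members (10 windows). CCGG, which reads the same on both strands, was found in 52.8% of all 32851 windows. Printed here with CCGG in capitals are Olig2 and Nkx6-2, where several sites are readable, and Zeb2 at its outermost start, where none is.
Olig2 promoter window, chr16:91225300-91225599, plus strand: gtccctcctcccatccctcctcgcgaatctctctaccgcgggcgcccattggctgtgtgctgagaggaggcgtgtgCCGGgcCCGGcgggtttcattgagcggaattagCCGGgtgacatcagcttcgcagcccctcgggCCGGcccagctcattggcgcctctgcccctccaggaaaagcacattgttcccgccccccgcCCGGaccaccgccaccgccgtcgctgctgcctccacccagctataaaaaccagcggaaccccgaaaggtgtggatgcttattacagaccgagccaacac
Nkx6-2 promoter window, chr7:139582748-139583047, minus strand: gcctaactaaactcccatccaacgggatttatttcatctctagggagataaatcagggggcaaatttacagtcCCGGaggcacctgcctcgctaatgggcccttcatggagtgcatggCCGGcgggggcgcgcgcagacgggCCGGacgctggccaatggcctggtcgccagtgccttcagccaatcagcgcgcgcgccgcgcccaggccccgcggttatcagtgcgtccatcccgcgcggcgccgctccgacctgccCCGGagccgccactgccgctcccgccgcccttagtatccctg
Zeb2 promoter window, chr2:45117393-45117692, minus strand: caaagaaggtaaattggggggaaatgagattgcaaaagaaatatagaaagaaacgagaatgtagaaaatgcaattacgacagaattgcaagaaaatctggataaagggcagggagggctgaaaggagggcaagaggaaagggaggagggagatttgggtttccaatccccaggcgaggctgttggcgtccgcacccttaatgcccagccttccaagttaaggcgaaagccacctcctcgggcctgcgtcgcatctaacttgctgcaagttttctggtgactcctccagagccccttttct

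The Olig2 window holds 5 CCGG and had 4 and 4 counts in the aOPC libraries against 5 and 9 in aOL. The Nkx6-2 window holds 4 CCGG and had 14 and 8 counts in the aOPC libraries against 8 and 22 in aOL. These counts are not scaled by library depth. The Zeb2 window holds 0 CCGG, so RRHP says nothing of 5hmC in it, and a Zeb2 window at an internal start, with 3 CCGG, had 2 and 4 counts in the aOPC libraries against 2 and 9 in aOL.

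CpG islands were summed for the genes whose sites carry the island mark. Of 8 factors tested 0 were called, against 0.579% of 10708 genes, and 0 of the 8 tested failed to overlap, against 18.5%. Olig2 islands were at 9.84 and 2.57 CPM in the aOPC libraries against 2.01 and 3.29 in aOL, with aOPC replicate 2 alone on top, and had a fitted difference of -0.29 ± 0.28 with an adjusted p of 0.998. With library totals without TMM it was -1.20, where the median of all islands was -0.818. With the study's library totals it was -0.62, where that median was -0.284, and without aOPC replicate 2 it was -0.064. The TMM factor of that library was 2.16 for islands, against 0.645 to 0.964 in the others. Zfp536 had the most island reads, with 119 and 445 counts in the aOPC libraries against 489 and 701 in aOL, a difference of 0.80 ± 0.86 with an adjusted p of 0.998. Without aOPC replicate 3 it was 2.27 and called, in a fit that called 4.15% of all islands, and without aOPC replicate 2 it was 0.084. Myrf and Zfp488 islands, with at most 13 counts in a library, were not tested.

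Single sites were tested where at least 10 reads were seen in at least 2 libraries, which 151 of the 556 member sites reached. Of these 145 lay in Myrf, Zfp488, Zfp536 and Zeb2, and 0 in Olig1, Olig2 or Sox10, whose sites never exceeded 12 counts. A total of 0 member sites were called, against 2.29% of 443062 sites tested. At an unadjusted p under 0.05 there were 5 higher and 14 lower, against 9.75% of all sites (5.45% higher and 4.31% lower). Some of the 5 higher sites passed the read filter through the aOL libraries alone. The balance turned without aOPC replicate 2. Without aOPC replicate 2 there were 7 higher and 4 lower, with 1 called against 1.66% of all sites, and over all sites 28467 were higher and 10298 lower at that threshold. Without aOPC replicate 3 there were 13 higher and 25 lower, with 15 called against 6.74%, and over all sites 46510 higher and 47753 lower.

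The smallest adjusted p, 0.0591, belonged to the Zeb2 intron site at position 44995764 of chromosome 2, 121678 bp downstream of the gene start. It had 0 and 2 counts in the aOPC libraries against 15 and 21 in aOL. Both aOL libraries lay above both aOPC libraries, with a fitted log2 difference of 3.21 ± 0.82 that depends on the prior count. Without aOPC replicate 2 it was 2.81 (adjusted p = 0.103), and without aOPC replicate 3, which leaves an aOPC count of 0, it was 6.79 (adjusted p = 0.0565). It was called without TMM scaling (adjusted p = 0.0452) and with the replicate number as a block (adjusted p = 0.0189), fits that called 2.51% and 2.94% of all sites, and not by DESeq2 (adjusted p = 0.636). A Zeb2 site nearer the start, at position 45099790, had 5 and 0 counts in the aOPC libraries against 36 and 45 in aOL, again without overlap, and a fitted difference of 2.98 ± 0.84 with an adjusted p of 0.101. That value also hung on 1 aOPC library, at 8.28 and called (adjusted p = 0.000552) without replicate 2, where the remaining aOPC count is 0, and at 1.18 (adjusted p = 0.247) without replicate 3. It too was called without TMM scaling (adjusted p = 0.0353) and with the replicate block (adjusted p = 0.00141), and not by DESeq2, at 2.32. In Zfp536 the site at position 37553471 of chromosome 7 had 1 and 2 counts against 13 and 18, with an adjusted p of 0.162. These sites are singled out after their values were seen.

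The sites with a lower value included better covered positions. At the Zeb2 site 51403 bp downstream of the start counts were 30 and 46 in the aOPC libraries against 28 and 41 in aOL, or 4.22 and 2.69 CPM against 1.76 and 1.52, a difference of -1.14 ± 0.38 with an adjusted p of 0.217, which was -0.71 without aOPC replicate 2 and -1.64 and called without aOPC replicate 3. At an unadjusted p under 0.05 Zeb2 had 3 higher and 4 lower of 15 sites tested (edgeR), where 9.75% of all sites passed in either direction. Myrf had 5 lower sites at that threshold and 1 higher, of 23 tested. The higher Myrf site, in an exon 16154 bp downstream of the start, had 13 and 29 counts in the aOPC libraries against 65 and 85 in aOL. Its difference was 0.95 ± 0.35 with an adjusted p of 0.307. Of the lower ones, 4 lay between 26776 and 30420 bp downstream of the Myrf start. The 2 Nkx2-2 sites with a lower value, at 12205 and 12279 bp, had differences of -1.43 ± 0.54 and -1.31 ± 0.51. They were -0.98 and -0.59 without aOPC replicate 2, and -2.03 and -2.01 without aOPC replicate 3, both then called.

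**Figure D5:**
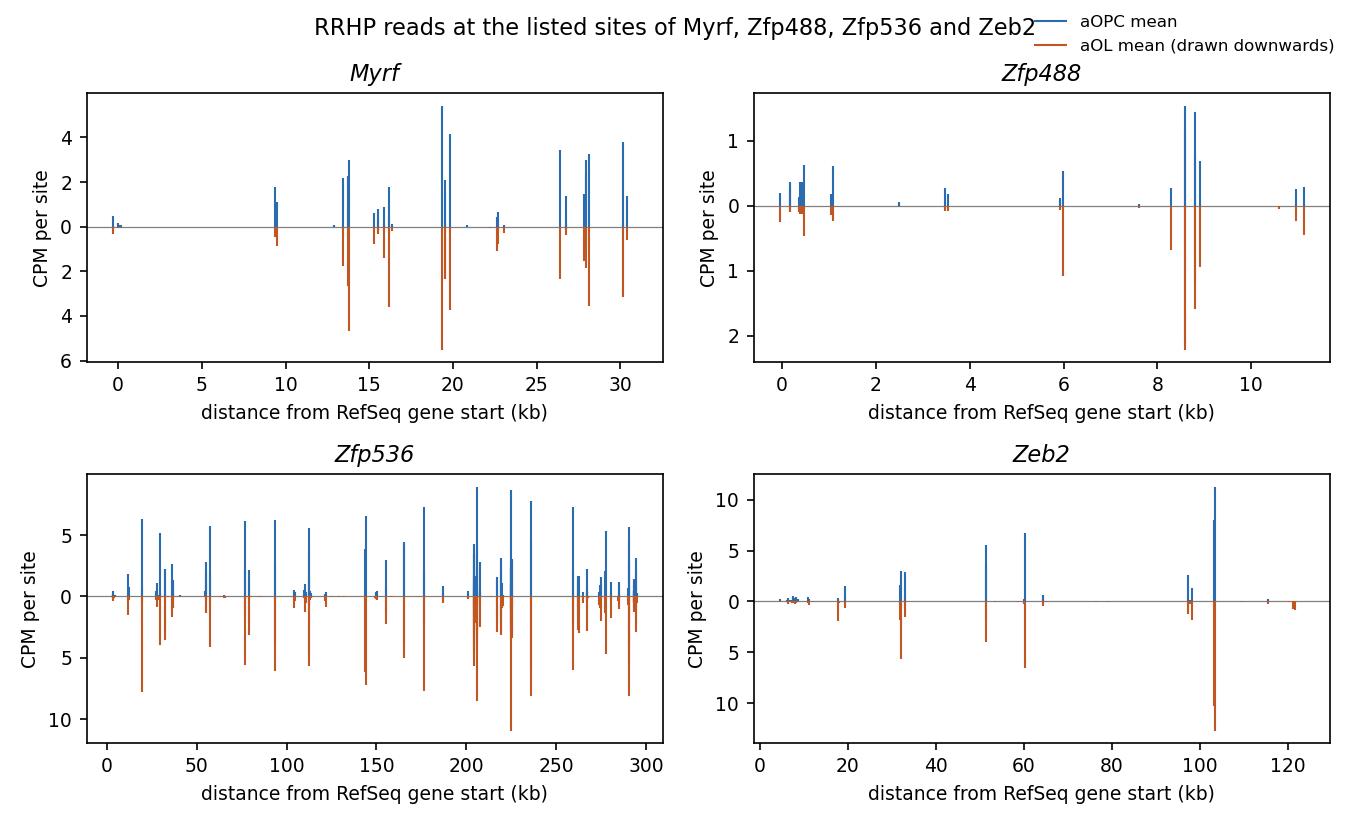
RRHP CPM at each listed site of Myrf, Zfp488, Zfp536 and Zeb2 against distance from the RefSeq gene start in kb, with the aOPC mean drawn upwards in blue and the aOL mean drawn downwards in orange (2 libraries each). Reads are low near the starts of Myrf and Zeb2 and concentrate at separate sites inside the genes. The highest is the Zeb2 site 103501 bp from the start, at 11.3 CPM in aOPC and 12.7 in aOL.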

How the data were processed

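RNA-seq and RRHP were analysed in 8 libraries, 2 per population and assay, grouped by sample title; replicate 1 was not analysed here. The deposited RNA values are log2 levels per gene symbol, made by the authors from reads mapped to mm10 (BWA), with featureCounts taking reads of unique position in exons and DESeq2 for normalization (version 1.2.5 per the labels). Upper quantiles of these values are nearly equal between libraries, so a difference shared by most genes cannot be seen, and RNA depth is unknown from them. The deposited RRHP values are unscaled counts of reads at each CpG position on each strand, mapped by the authors to mm10; the aligner and treatment of duplicates are not given in the sources used here. A site listed for 1 replicate number only was given 0 in the other libraries, and 100% of 466367 sites on the members' chromosomes lay at a CCGG of GRCm38.

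RNA was tested with limma 3.58.1 over genes that reached a log2 level of 5 in 2 or more libraries. For RRHP, edgeR 4.0.16 was fitted by quasi-likelihood to the counts, with TMM factors applied to the library totals and filterByExpr for sums, and an adjusted p under 0.05 was a call. CPM are counts scaled to each library's total and carry no TMM factor. DESeq2 1.42.0, other filters and scalings, a replicate block and each library left out were alternatives. Fits were tested on simulated data. An exact permutation test of 2 against 2 libraries cannot give a p under 0.333 and was not used. Sequences and gene spans came from RefSeq on GRCm38.p6; Olig1, Sox10 and Myrf have no promoter window in the table used. All 10 members are named. Of other lists, up to 3 genes with the smallest p are named, beside any called. For the check of labels Pdgfra, Cldn5 and the progenitor markers with a difference above 0 are named as well. The members and lists were chosen with earlier results of these data known.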

Additional observations from a re-analysis of the deposited data

Results flagged for a closer look

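Some RRHP reads near the factors entered none of the tests above, because the deposited columns name no member there. Those inside a RefSeq span did count in its CPM per position. They stand out only by lying above the 3 counts that a count of 0 allows, and their difference between populations was not tested.

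The interval between the end of Olig2 and the start of Olig1 (GRCm38 chromosome 16, 91228678 to 91269768, 41.1 kb) held 5320 counts in all, at 66 listed of 110 strand positions, of which 1 is given to an Olig gene. By library these were 728 and 1389 counts in the aOPC libraries against 1251 and 1952 in aOL, or 102 and 81.1 CPM against 78.6 and 72.1. Both aOL libraries lay below both aOPC libraries. The share of such intervals over the genome was not computed, while 38.8% of all gene-body sums did not overlap. Per position the interval carried 0.930 and 0.738 CPM in the aOPC libraries against 0.714 and 0.656 in aOL, above every value of Olig1 and Olig2 themselves. Its strongest site, 1326 bp upstream of the Olig1 start, had 143 and 178 counts in the aOPC libraries against 162 and 233 in aOL, or 20.1 and 10.4 CPM against 10.2 and 8.61, so that aOPC replicate 2 stood alone there. It is shown with the CCGG in capitals.
Site upstream of Olig1, chr16:91268429-91268458, plus strand: gtattcccaggatCCGGgaggcagagacaa

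Sites in the span or within 2000 bp before the start that carry another name or none gave 18378 counts in Zfp536 (200 sites, no name), 2123 in Nkx2-2 (44 sites, some named Nkx2-2as), 800 in Olig1 (2 sites), 373 in Zfp488 (4 sites), 84 in Sox10 (9 sites, some named Gm10863) and 77 in Zeb2 (15 sites, some named Gm13476). For Zfp536 these were 246 and 272 CPM in the aOPC libraries against 293 and 270 in aOL, which overlapped. For Nkx2-2 they were 41.5 and 33.1 CPM in aOPC against 28.6 and 29.8 in aOL, and more reads than its named gene-body sites gave. The Nkx2-2 groups did not overlap, where 38.8% of all gene-body sums did not either. The Olig1 counts include those of the site shown above.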

How the results depend on the processing

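No member was called in RNA, gene bodies, promoters or CpG islands under any alternative filter, scaling or tool; with a library left out, where a lone library of a population is assumed to vary like the others, members called ranged from 0 to 5 in RNA, 0 to 6 in gene bodies, 0 to 1 in islands and 0 to 15 at single sites. The highest count came without aOPC replicate 2 in RNA, where 36.3% of all genes were called, and without aOPC replicate 3 in RRHP, where 22.6% of gene bodies, 4.15% of islands and 6.74% of sites were. Member sites called were 2 with library totals without TMM, the Zeb2 sites at positions 44995764 and 45099790. Both had passed the read filter through the aOL libraries alone. Same-numbered libraries come from different reporter lines. In RRHP they list equally many sites, 1259056 for replicate 2 and 1386042 for replicate 3. The deviations of same-numbered libraries from the group means correlated at -0.0736 in RNA and -0.444 in gene bodies. With the replicate block the same 2 Zeb2 sites were called, and no other member result changed its call, while all genes called in RNA went from 9 to 127.

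Some directions turned, and the cause was not tested. Ranges with 1 library left out crossed 0 in RNA for Nkx2-2 (-0.13 to 0.20), Nkx6-2 (-0.59 to 0.0046), Olig2 (-0.020 to 1.24) and Zfp536 (-0.28 to 0.098), in gene bodies for Myrf (-0.14 to 0.038), Nkx6-2 (-1.28 to 0.51), Sox10 (-1.26 to 0.15), Zeb2 (-0.069 to 0.034) and Zfp536 (-0.035 to 0.27), at the Zfp536 promoter (-0.16 to 0.57), and at the strongest sites of Myrf (-0.23 to 0.057), Zeb2 (-0.048 to 0.18) and Zfp536 (-0.19 to 0.92, called at the latter). Library totals of the study without TMM put the median of all gene bodies at 0.366 and gave Myrf 0.31 and Zeb2 0.36. Totals without TMM put that of all promoters at -0.597 and gave Nkx6-2 -0.28 and Zfp536 -0.30. With at least 10 reads in every library the Myrf site was at 0.046. A promoter window from 2000 bp upstream to 500 bp downstream of the RefSeq start, as the study's methods define it, was chosen after seeing the data and gave Sox10 0.54, with 0 of 9 members called. Sums of sites outside CpG islands, also chosen after seeing the data, left 7 gene bodies and 3 promoters tested, with 0 called. Over all alternatives 79 of 90 RNA values and 90 of 103 gene-body values kept their direction and call. At this depth no single site of Olig1, Olig2 or Sox10 had enough reads to be tested.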

Other observations

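Around the RefSeq gene starts, from 2000 bp upstream to 500 bp downstream, the factors differed in how many RRHP reads they gave, whatever gene the deposited columns name there. The window of Zfp536 held 9 sites and 15.0 and 18.3 CPM in the aOPC libraries against 15.4 and 15.2 in aOL, and that of Zeb2 held 6 sites and 0.562 and 0.117 CPM against 0.126 and 0.333. The Nkx2-2 window held 9 sites, at 6.19 and 6.54 CPM in aOPC and 5.28 CPM in both aOL libraries. Its groups did not overlap, where 27.5% of all promoter-column sums did not either. In the Olig1 window aOPC replicate 2 stood alone at 24.3 CPM, with the other libraries between 10.9 and 12.3. Most of these reads are those of the site 1326 bp upstream of the Olig1 start already shown, at 20.1 CPM in aOPC replicate 2. The Sox10 window, with 12 sites, had 1.97 and 1.05 CPM in aOPC against 0.942 and 2.14.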
